A study of Homo sapiens with 95 samples.

Results

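Programmed cell death through the mitochondrion is governed by the BCL2 family, and 10 of its genes were described here in immortalized human bronchial epithelial cells. They were taken by symbol from the 27978 genes listed in every sample, and all 10 were found. The anti-apoptotic members MCL1, BCL2L1 (which encodes BCL-XL) and BCL2 hold the outer mitochondrial membrane closed. The effectors BAX and BAK1 form the pore through which cytochrome c leaves. The BH3-only members BBC3 (PUMA), PMAIP1 (NOXA), BCL2L11 (BIM), BID and BAD sense stress and either bind the anti-apoptotic proteins or activate the effectors. BBC3, PMAIP1 and BAX are known p53 targets, PMAIP1 is also a target of the stress factor ATF4, and BAD is held inactive by growth factor kinases. Much of the control of this family acts on protein, by phosphorylation, cleavage and degradation, and mRNA counts do not show it.

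The cells were AALE, a single line, so that every group shares its background. Knockouts of FAT1 and of CDKN2A by CRISPR were compared with cells given the Cas9 and GFP plasmid without a guide (GFP). Cells overexpressing NRF2 (the gene NFE2L2), FGFR1, NRG1 or PIK3CA were compared with cells given an empty vector with the reporter HcRed. Each of these 8 lines was exposed to CSC (a condensate of cigarette smoke, at 24 μg/ml), to BaP (benzo(a)pyrene, a polycyclic hydrocarbon of smoke, at 173 μM), to NNK (a nitrosamine found in tobacco, at 490 μM) or to DMSO alone as solvent control. The exposure time is not given in the sources used here. Sparse full length (SFL) sequencing, a pooled RNA-seq of ribosome-depleted RNA, gave 95 samples, with 3 per combination of line and treatment and 2 for CSC-treated FGFR1. No source says whether a line is 1 clone or a pool, nor what selection it went through.

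Between 287446 and 2116383 reads were counted per sample (median 934235). The libraries with under 500000 reads numbered 9, of which 5 were from BaP, 3 from NNK, 1 from CSC and 0 from DMSO. The perturbed gene followed the label in all 6 lines. FAT1 had a median of 102 CPM (reads of a gene scaled to the same total in every sample) in its knockout and 390 in GFP, and CDKN2A had 49.3 and 104. The overexpressed genes had medians of 1384 against 210 (NFE2L2), 1196 against 52.2 (FGFR1), 5756 against 17.6 (NRG1) and 524 against 84.4 CPM (PIK3CA). All 7 markers of basal airway epithelium were present, and their summed level was between 3606 and 11615 CPM. Of the markers of fibroblasts, leukocytes and endothelium, COL1A1 and CD68 reached a mean count of 10, and CD3E was at 0 in all 95 samples. The markers moved with several comparisons. Of the 7 basal markers, 6 were called lower in FGFR1, NRG1, PIK3CA and BaP and 5 in FAT1 knockout. In CDKN2A knockout and CSC 4 were called lower, in NRF2 3 and in NNK 1. Those called higher numbered 3 in NNK, 2 in CDKN2A knockout and NRF2, 0 in FGFR1 and 1 in each other comparison. Of all genes, 48.8% were called in FAT1 knockout, 58.2% in CDKN2A knockout, 21.7% in NRF2, 13.9% in FGFR1, 12.2% in NRG1 and 27.7% in PIK3CA. In the chemicals 55.1% (CSC), 51.0% (BaP) and 51.8% (NNK) were called. The summed level of the 7 was between 7617 and 10023 CPM in HcRed and between 6639 and 11615 in NRF2. It was between 5668 and 8484 in FGFR1, 5256 and 6450 in NRG1 and 5250 and 6252 in PIK3CA. In GFP it was between 5741 and 7316, in FAT1 knockout 3606 and 5756 and in CDKN2A knockout 4450 and 6549. In the treatments it ran from 5196 to 10098 CPM in DMSO, 4215 to 8381 in CSC, 3606 to 8244 in BaP and 5378 to 11615 in NNK. Of 6 fibroblast markers 2 could be tested, and both were called higher in all 3 chemicals, as counted and with the trend described next removed. The summed level of the 6 was between 8.18 and 34.9 CPM in DMSO, 14.1 and 55.8 in CSC, 12.5 and 66.9 in BaP and 12.1 and 52.2 in NNK, and COL3A1 was at 0 in 93 of 95 samples. The part of these markers in the results of the family was not tested. In the 3 chemicals the counts shifted toward genes rich in G and C. The mean GC content of the genes counted, weighted by their reads, had a median of 46.3% in DMSO (45.5% to 46.8%), 47.6% in CSC (47.2% to 48.2%), 47.6% in BaP (46.7% to 48.2%) and 47.6% in NNK (46.9% to 48.3%). That shift touches every chemical comparison below, so the values of the members are given as counted and, for those called in either, again after a trend on GC content and exon length was removed from each sample.

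BCL2L1 with CSC and PMAIP1 with NNK were the member responses to a chemical that passed the test under every way of processing tried, and the promoters of both are shown for that reason. The stretches run from 250 bases before to 50 bases after a RefSeq start (GRCh38.p14), 5′ to 3′ on the strand of the gene, and capitals mark GCGTG, the core of the element bound by the aryl hydrocarbon receptor, to which BaP binds. BCL2L1 has 2 starts in the table, at chr20:31722819-31723118 and chr20:31723914-31724213 on the minus strand, and PMAIP1 has 1, at chr18:59899746-59900045 on the plus strand.
BCL2L1, downstream start: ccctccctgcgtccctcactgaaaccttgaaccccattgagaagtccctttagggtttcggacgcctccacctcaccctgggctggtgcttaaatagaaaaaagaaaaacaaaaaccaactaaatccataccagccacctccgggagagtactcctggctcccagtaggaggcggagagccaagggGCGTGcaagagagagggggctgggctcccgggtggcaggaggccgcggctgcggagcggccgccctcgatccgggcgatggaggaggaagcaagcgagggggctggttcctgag
BCL2L1, upstream start: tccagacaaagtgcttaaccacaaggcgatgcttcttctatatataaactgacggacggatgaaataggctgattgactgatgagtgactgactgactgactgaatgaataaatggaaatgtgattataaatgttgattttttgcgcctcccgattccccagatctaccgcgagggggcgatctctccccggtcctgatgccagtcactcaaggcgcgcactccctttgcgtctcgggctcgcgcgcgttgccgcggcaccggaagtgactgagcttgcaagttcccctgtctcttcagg
PMAIP1: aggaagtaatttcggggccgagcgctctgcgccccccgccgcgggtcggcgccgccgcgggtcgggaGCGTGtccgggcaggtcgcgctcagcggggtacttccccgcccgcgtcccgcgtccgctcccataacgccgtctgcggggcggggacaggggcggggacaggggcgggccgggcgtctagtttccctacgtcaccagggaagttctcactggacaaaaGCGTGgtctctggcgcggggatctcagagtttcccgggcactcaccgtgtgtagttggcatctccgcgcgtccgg
The downstream start of BCL2L1 held the motif 1 time, the upstream start did not hold it, and PMAIP1 held it 2 times. On either strand the motif was in 12832 of 35116 such promoters of all genes (36.5%), so a match here is a description of sequence only. The motif was searched as GCGTG and as its complement CACGC, and 9 of the 10 members matched the promoter table, with MCL1 named only.

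MCL1 mRNA was the most abundant of the family. Per kilobase of its main transcript, MCL1 had a mean level of 124 ± 22.6 CPM per kb (SD, n = 95), above every other member in all 95 samples. BAD (36.1 ± 12.7), BAX (32.2 ± 9.57) and BCL2L1 (28.1 ± 9.26 CPM per kb) followed, then PMAIP1 (13 ± 4.5), BID (12 ± 4.05), BCL2L11 (9.17 ± 2.13), BAK1 (7.48 ± 2.55) and BBC3 (4.62 ± 2.0). BCL2 mRNA was the least abundant at 0.962 ± 0.471 CPM per kb. Some neighbours in this order were not separated by the spread between samples. BAD was above BAX in 54 of 95 samples and PMAIP1 above BID in 52 of 95, while BCL2L1 was above PMAIP1 in 86 of 95 and BBC3 above BCL2 in 91 of 95. With the union of all annotated exons as the length, BAX moved from place 3 to place 5 and BID from 6 to 8, and the places of MCL1, BAD, BBC3 and BCL2 did not move. The counts behind these levels differ widely. MCL1 rested on 127 to 1020 reads per sample, BCL2L1 on 16 to 204, and BBC3 and BCL2 on 0 to 30 and 0 to 19, with means of 7.94 and 6.34 reads. BCL2 was at 0 in 3 samples and BBC3 in 1, and a count of 0 still allows up to 3 reads by counting error alone.

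**Figure D1:**
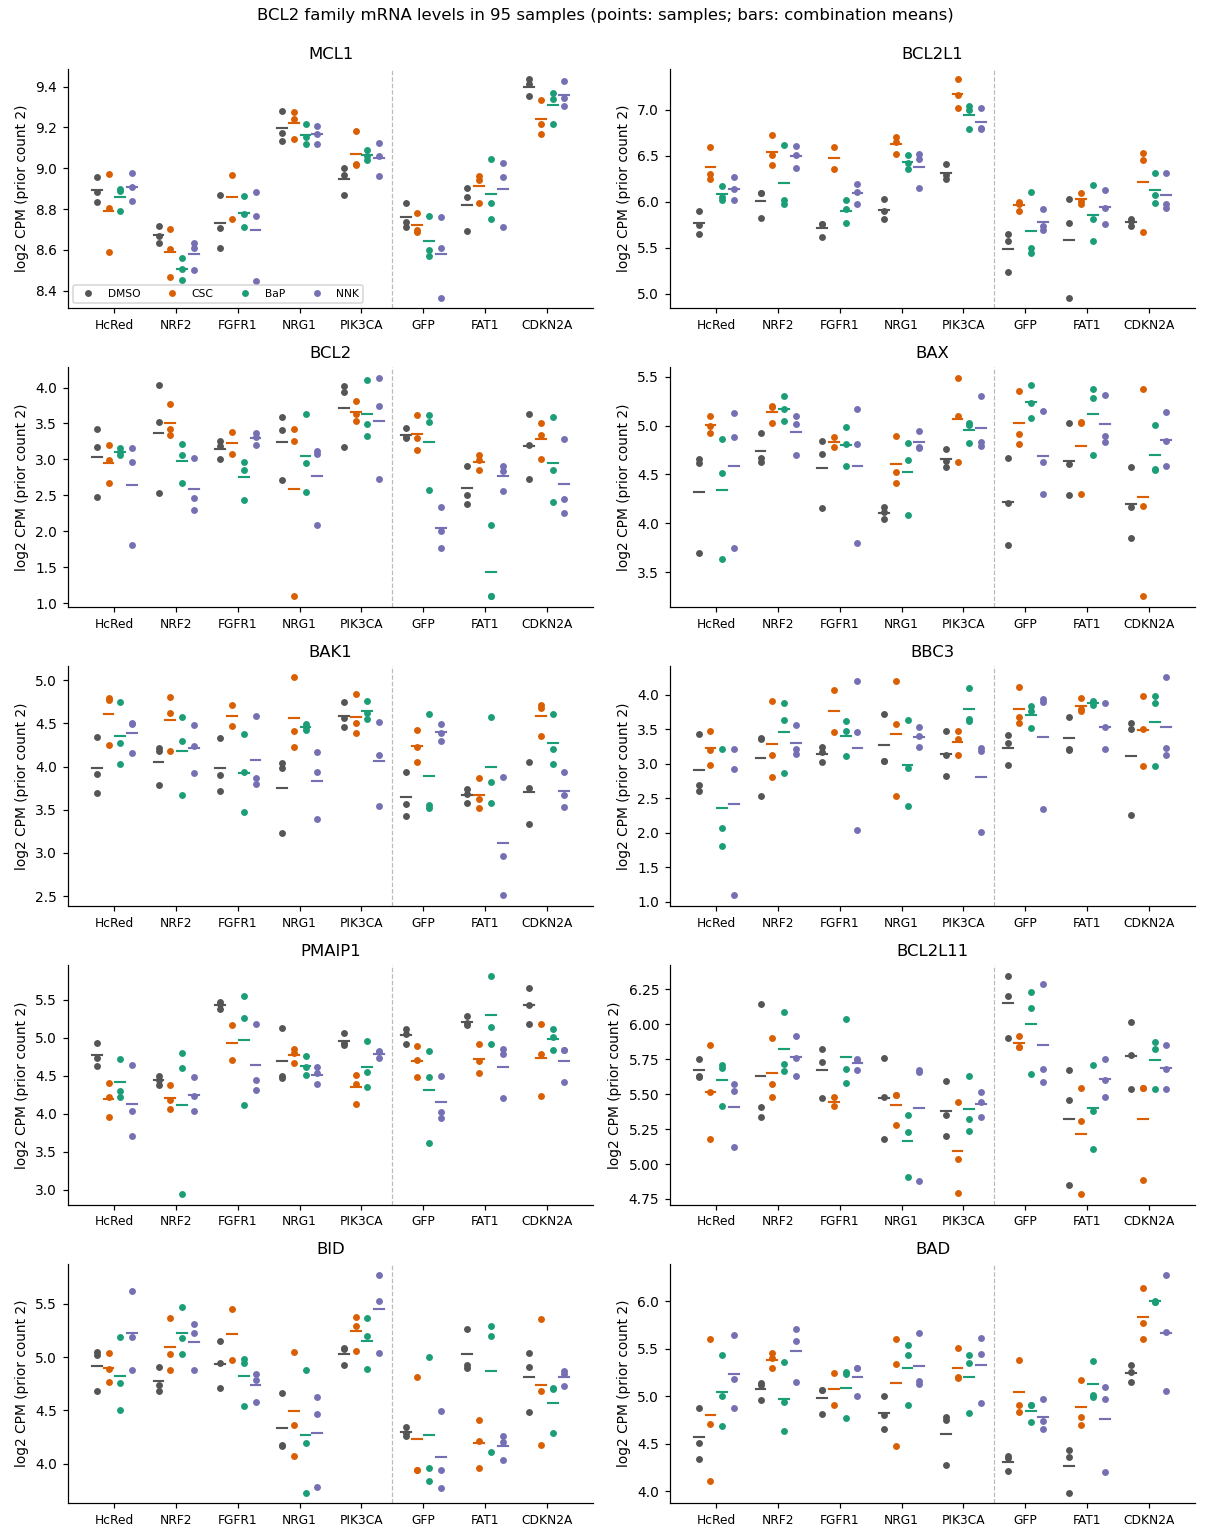
The panels plot log2 CPM (y axis, prior count of 2) of each member in all 95 samples, by line (x axis) and treatment (colour), with a bar at the mean of each combination and a dashed line between the lines compared with HcRed and those compared with GFP. MCL1 lies highest in CDKN2A knockout and NRG1 cells, and BCL2L1 highest in PIK3CA cells in every treatment.

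In the 6 comparisons of a line with its control over all treatments, 24 of 60 member values passed an adjusted p of 0.05 (limma-voom, both factors in 1 fit of 95 samples). Of all genes, from 12.2% (NRG1) to 58.2% (CDKN2A knockout) passed in these comparisons. In the 3 comparisons of a chemical with DMSO over all lines, 16 of 30 passed, beside 51.0% (BaP) to 55.1% (CSC) of all genes. A value that passed is called higher or lower here, and the share of all 14384 genes tested that passed is given beside the count of members. The calls that held under each of the 13 or 14 ways of processing numbered 8 of 40, and 6 of them are differences between lines. The 4 overexpression lines share the HcRed samples and the 2 knockouts share the GFP samples.

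**Figure D2:**
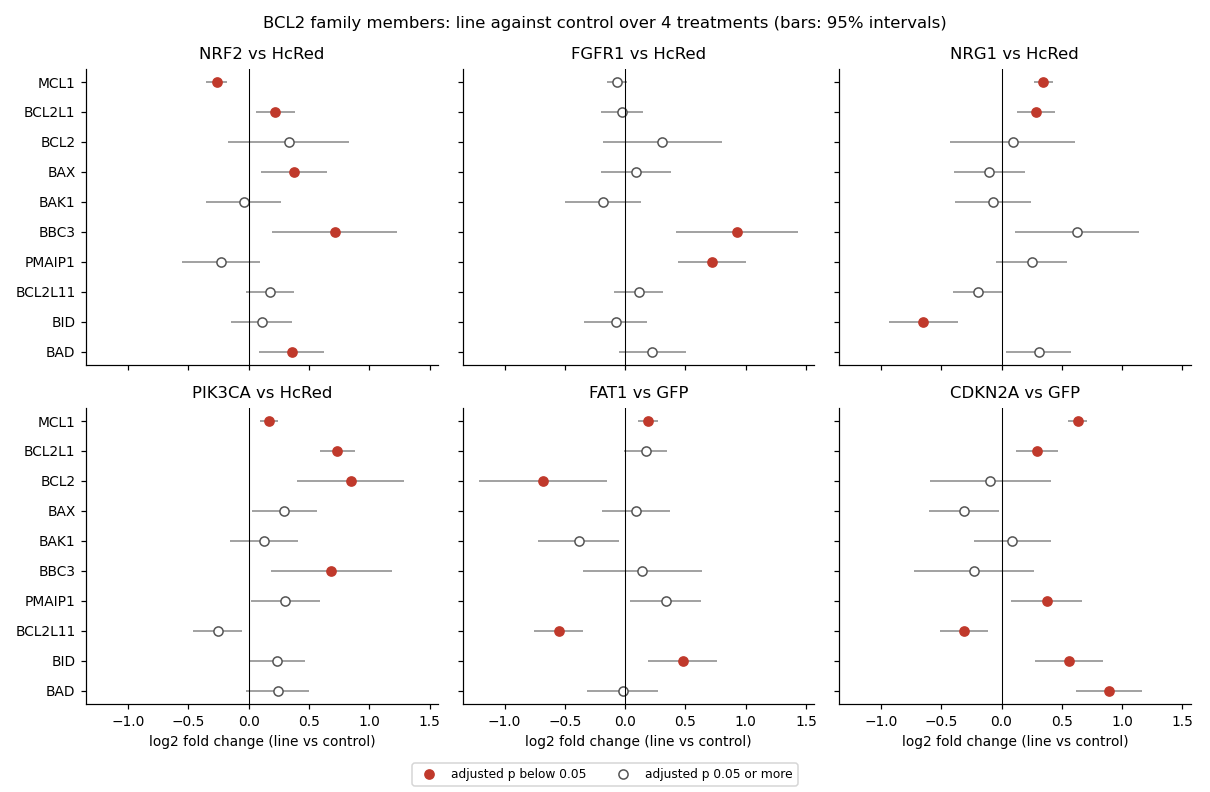
Each panel plots the log2 fold change of the 10 members (y axis) in a line against its control (x axis) over the 4 treatments, with 95% intervals. MCL1 was higher in 4 lines and lower in NRF2, from 0.63 in CDKN2A knockout to -0.27 in NRF2.

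MCL1 (chr1:150533371-150552214, minus strand, GRCh37) encodes a short-lived anti-apoptotic protein that binds BIM, NOXA and BAK1. In GFP cells it lay between 328 and 452 CPM (median 416, n = 12), and in CDKN2A knockout cells between 573 and 690 (median 647, n = 12). The lowest knockout sample was above the highest control sample. The difference in log2 was 0.63 ± 0.04 (SE, adjusted p = 4.3e-30). DMSO-treated cells alone gave 418, 452 and 425 CPM in GFP against 690, 652 and 678 in the knockout. NRG1 cells, which overexpress an ERBB receptor ligand, lay between 553 and 621 CPM (median 574), above all HcRed samples at 383 to 501 (median 471), and the log2 fold change was 0.35 ± 0.04 (adjusted p = 9.72e-13). NRF2 cells ranged from 348 to 418 CPM (median 388), which overlaps with HcRed, and MCL1 was lower in them by a log2 fold change of -0.27 ± 0.04 (adjusted p = 3.37e-07). Those 3 calls held under every alternative. Smaller differences were called in FAT1 knockout (412 to 527 CPM, log2 fold change 0.19 ± 0.04, adjusted p = 4.9e-05) and in PIK3CA (466 to 579 CPM, 0.17 ± 0.04, adjusted p = 0.000283), and both lost the call in DMSO-treated cells alone (0.03 and 0.03). The PIK3CA call was also lost without replicate 1. FGFR1 cells ranged from 347 to 498 CPM, and their difference from HcRed was not called (-0.06, 95% interval -0.15 to 0.02). The exons of MCL1 overlap those of ADAMTSL4 and ADAMTSL4-AS1 by 371 bases, where those genes had 0 to 40 and 1 to 29 reads, and no source states whether counting used strand.

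BCL2L1 (chr20:30252255-30311792, minus strand) encodes BCL-XL, which binds BAX and several BH3-only proteins. HcRed cells ranged from 48.2 to 94.5 CPM (median 66.4) and PIK3CA cells, which overexpress the catalytic subunit of PI3-kinase, from 74.1 to 159 (median 118). The ranges over all treatments overlap. Within DMSO they did not, with 51.7, 57.6 and 48.2 CPM in HcRed against 74.1, 76.1 and 83.0 in PIK3CA. Over all treatments the log2 fold change was 0.74 ± 0.08 (adjusted p = 1.93e-15), and the call held under every alternative. BCL2L1 was also called higher in NRG1 (54.2 to 102 CPM, median 85.0, log2 fold change 0.29 ± 0.08, adjusted p = 0.0101), in NRF2 (54.6 to 104 CPM, median 81.4, 0.22 ± 0.08, adjusted p = 0.0426; 0.16 with GC and length removed, adjusted p = 0.148) and in CDKN2A knockout against GFP (49.0 to 90.04 against 35.7 to 67 CPM, 0.29 ± 0.09, adjusted p = 0.00267). Leaving out the samples of replicate 1 ended each of these 3 calls, and each was also lost in DMSO-treated samples alone. Leaving out the samples of replicate 2 ended the first and second, and the NRF2 call was also lost without a filter on low counts. The CDKN2A value was 0.11 with GC and length removed (adjusted p = 0.268). FAT1 knockout (29.0 to 70.7 CPM) and FGFR1 (47.0 to 94.8) gave differences of 0.17 (95% interval -0.01 to 0.35) and -0.03 (-0.20 to 0.15), which were not called.

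BCL2 (chr18:60790579-60987361, minus strand), the founding anti-apoptotic member, had few reads in all lines. HcRed cells had 1.37 to 8.64 CPM (median 6.31) and PIK3CA cells 4.46 to 15.4 (median 10.8), and the log2 fold change was 0.85 ± 0.23 (adjusted p = 0.00188). Only the DMSO-treated samples on their own, 3 against 3, lost this call among the alternatives, at a log2 fold change of 0.94 (adjusted p = 0.189). In FAT1 knockout cells BCL2 lay between 0 and 6.20 CPM (median 4.4) against 1.28 to 10.2 (median 7.73) in GFP, and the log2 fold change was -0.68 ± 0.27 (adjusted p = 0.0298). That call was lost without replicate 2 and without replicate 3, after the GC correction and without the shallow libraries. It was also lost in DMSO-treated samples alone (-0.95, adjusted p = 0.131).

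Counted together, 6 of the 10 members were called in CDKN2A knockout, where 58.2% of all genes were called, and 4 of 10 in FAT1 knockout, where 48.8% were. In NRF2 cells 5 members were called against 21.7% of all genes, of which 1 (MCL1) was called with GC and length removed, in FGFR1 2 against 13.9%, in NRG1 3 against 12.2% and in PIK3CA 4 against 27.7%. The median log2 fold change of the members was between 0.10 (FGFR1) and 0.27 (PIK3CA), beside medians over all genes from -0.01 to 0.03. With GC and length removed it was -0.14 in FAT1 knockout and 0.01 in CDKN2A knockout, beside 0.04 and -0.06 over all genes. In the overexpression lines it was then 0.08 to 0.27, beside -0.03 to 0.00. Calls gained by that removal (limma-voom) included PMAIP1 in FAT1 knockout (0.46, adjusted p = 0.00565), BBC3 in CDKN2A knockout (-0.56, adjusted p = 0.0464) and BCL2L11 in PIK3CA (-0.26, adjusted p = 0.0484). Members with few reads, such as BBC3 and BCL2, had standard errors of 0.23 to 0.27 in these comparisons, against 0.04 for MCL1.

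The effectors gave 1 call between lines. BAX (chr19:49458072-49465055, plus strand) ranged from 10.3 to 32.7 CPM (median 25) in HcRed and from 22.5 to 37.3 (median 30.7) in NRF2, and its log2 fold change of 0.38 ± 0.14 was called (adjusted p = 0.0436), but 9 of 14 alternatives lost the call. In CDKN2A knockout BAX lay between 7.42 and 39.2 CPM (median 21.5) against 11.6 to 40.6 in GFP (median 26.9). The difference of -0.31 ± 0.15 was not called (adjusted p = 0.0648), and with GC and length removed it was -0.56 (adjusted p = 0.000653). BAK1 (chr6:33540324-33548070, minus strand) was called in none of the 6 lines with limma-voom (1 had an unadjusted p under 0.05), edgeR or DESeq2. Its medians lay between 10.4 CPM in FAT1 knockout and 21 in PIK3CA, and the largest difference, -0.39 in FAT1 knockout (adjusted p = 0.055), was -0.57 with GC and length removed (adjusted p = 0.00269) and passed in 4 alternatives in all.

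Among the BH3-only genes, BCL2L11 and BAD gave the differences that passed under every alternative. BCL2L11 (chr2:111876955-111926021, plus strand) encodes BIM, which binds all anti-apoptotic members. GFP cells lay between 46.0 and 79.3 CPM (median 58.0) and FAT1 knockout cells between 25.5 and 51.8 (median 42.1). FAT1 encodes a large cadherin that acts upstream of Hippo signalling. BCL2L11 was lower by a log2 fold change of -0.55 ± 0.10 (adjusted p = 2.18e-06), which held under every alternative, and in DMSO the values were 79.3, 57.6 and 71.3 in GFP against 48.8, 41.7 and 26.6 in the knockout. BCL2L11 was also called lower in CDKN2A knockout (27.4 to 62.5 CPM, median 46.9, log2 fold change -0.31 ± 0.10, adjusted p = 0.00493), a call lost without replicate 3. GFP had the highest median of BCL2L11 of the 8 lines, and both differences share its samples. The exons of BCL2L11 overlap those of the antisense MIR4435-2HG by 727 bases, where that gene had 0 to 40 reads.

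BAD (chr11:64037302-64052176, minus strand) is a sensitizer whose protein is kept inactive when phosphorylated by AKT and other kinases. It lay between 16.4 and 39.7 CPM (median 25.5) in GFP and between 31.1 and 75.7 (median 50.7) in CDKN2A knockout, and the DMSO-treated samples gave 16.4, 18.2 and 18.6 against 33.4, 37.9 and 36.1. The log2 fold change was 0.89 ± 0.14 (adjusted p = 1.47e-08), and it was 0.62 with GC and length removed (adjusted p = 8.76e-06). The call held under every alternative. BAD was called higher in NRF2 too (22.7 to 50.3 against 15.1 to 47.9 CPM, 0.36 ± 0.14, adjusted p = 0.0484), but 9 of 14 alternatives lost it. The exons of BAD share 404 bases with GPR137 on the other strand, which had 7 to 54 reads per sample, so reads of the pair could not be fully told apart without strand.

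BID (chr22:18216904-18257536, minus strand), which is cut by caspase 8 and links death receptors to the mitochondrion, went in different directions in different lines. It was called higher in CDKN2A knockout (median 24.3 against 15.2 CPM in GFP, log2 fold change 0.56 ± 0.14, adjusted p = 0.000419) and in FAT1 knockout (median 18.0 CPM, 0.48 ± 0.15, adjusted p = 0.00418). It was called lower in NRG1, which ranged from 11.1 to 31.0 CPM (median 17.3) against 20.6 to 47.0 (median 28.8) in HcRed, by -0.65 ± 0.15 (adjusted p = 0.000557). The NRG1 call was lost without replicate 1 and in DMSO-treated samples alone (-0.64, adjusted p = 0.242), the CDKN2A call in DMSO-treated samples alone, and the FAT1 call without replicate 1 or replicate 2. GFP had the lowest median of BID of the 8 lines, and both knockout differences share its samples. Both knockout medians lay below that of HcRed. In DMSO-treated samples alone the FAT1 difference was 0.76. Against DMSO, BID changed in FAT1 knockout by -0.87 in CSC, -0.87 in NNK and 0.01 in BaP. In GFP these values were -0.11, -0.30 and -0.09. Whether the FAT1 difference holds within CSC or NNK was not tested.

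PMAIP1 (chr18:57567228-57571537, plus strand) encodes NOXA, which binds mainly MCL1. HcRed cells lay between 11 and 28.4 CPM (median 18.3) and FGFR1 cells between 15.2 and 44.7 (median 34.1). FGFR1 exceeded HcRed by a log2 fold change of 0.72 ± 0.15 (adjusted p = 7.57e-05), and of the alternatives only the DMSO-treated samples alone lost the call (adjusted p = 0.10). PMAIP1 in CDKN2A knockout had a log2 fold change of 0.38 ± 0.15 (adjusted p = 0.025), lost in 4 of 14 alternatives. BBC3 (chr19:47724079-47736023, minus strand) was called higher in FGFR1 (0.93 ± 0.26, adjusted p = 0.00678), NRF2 (0.71 ± 0.26, adjusted p = 0.039) and PIK3CA (0.68 ± 0.26, adjusted p = 0.0332). In DMSO-treated samples alone the values were 0.40, 0.36 and 0.41, none of them called (limma-voom, 0 at an unadjusted p under 0.05). The FGFR1 call was also lost without replicate 3, the PIK3CA call with edgeR and DESeq2, without replicate 2 or 3 and without the shallow libraries, and the NRF2 call in 10 of 13 alternatives, the GC correction among them (0.59, adjusted p = 0.0921). Those comparisons share the HcRed samples, in which BBC3 had 0 to 10 reads and the lowest median of the 8 lines (5.64 CPM). FGFR1 (1.958 to 16.4 CPM, median 8.85), NRF2 (3.67 to 12.9, median 7.63) and PIK3CA (1.88 to 15, median 7.71) all overlap with it.

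The chemicals were then compared with DMSO over all lines. In CSC 7 of 10 members were called, beside 55.1% of all genes, with 5 higher (28.0% of all genes) and 2 lower (27.1%). In BaP 4 members were called beside 51.0%, with 3 higher (26.1%) and 1 lower (24.9%), and in NNK 5 beside 51.8%, with 3 higher (26.1%) and 2 lower (25.7%). Over all genes the log2 fold change followed GC content, with a Spearman correlation across 13487 genes of 0.697 in CSC, 0.717 in BaP and 0.758 in NNK, where genes are not independent replicates. In the comparisons of lines it was between -0.07 and 0.21. The median of all genes was 0.00 in CSC, 0.01 in BaP and 0.00 in NNK, beside 0.24, 0.14 and 0.02 for the members. The exons of the members called higher have 57.8% to 64.7% GC, and those of the members called lower 40.03% to 47.4%. With the trend on GC content and length removed, 3 members were called in CSC (33.4% of genes), 3 in NNK (17.2%) and 0 in BaP (24.7%; limma-voom, 1 member at an unadjusted p under 0.05, no other tool run on corrected values). What part the GC shift has in any single value was not tested further.

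**Figure D3:**
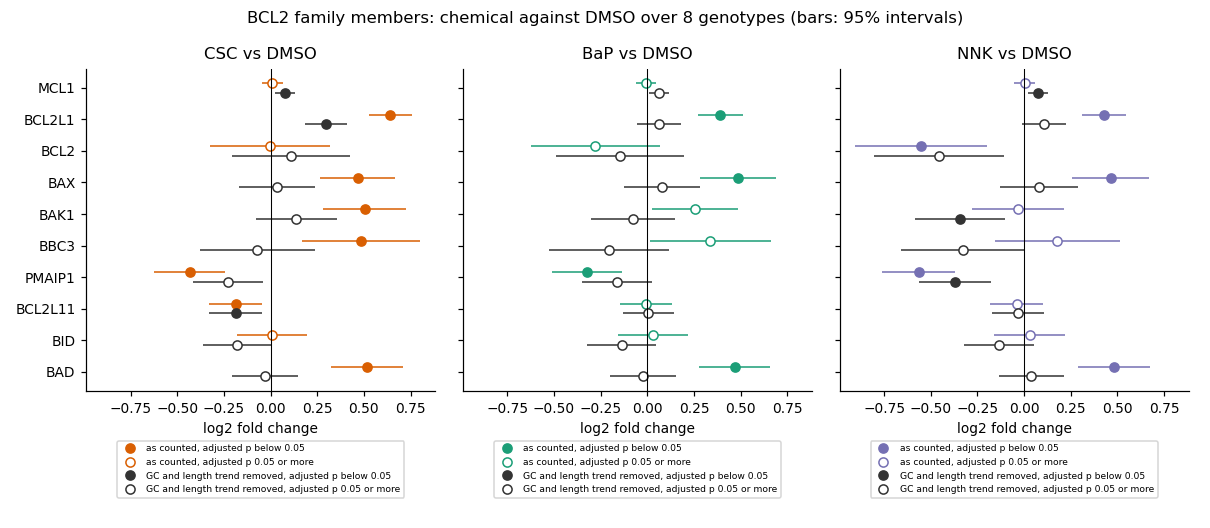
Each panel plots the log2 fold change of the members (y axis) in a chemical against DMSO (x axis) over the 8 lines with 95% intervals, as counted (colour) and with the trend on GC content and exon length removed (dark). BAX and BAD lie between 0.46 and 0.52 as counted and between -0.03 and 0.08 after removal, while BCL2L1 in CSC and PMAIP1 in NNK keep filled symbols in both.

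BCL2L1 was called higher in all 3 chemicals as counted. Over the 8 lines it lay between 29.0 and 83.0 CPM in DMSO (median 53.7, n = 24), between 49.0 and 159 in CSC (median 85.3, n = 23), between 41.3 and 130 in BaP (median 64.7, n = 24) and between 49.6 and 128 in NNK (median 68.7, n = 24). The log2 fold change was 0.64 ± 0.06 in CSC (adjusted p = 8.91e-19), 0.39 ± 0.06 in BaP (adjusted p = 2.51e-08) and 0.43 ± 0.06 in NNK (adjusted p = 1.29e-09). Genes within 2.5 points of its GC content had a median log2 fold change of 0.33, 0.32 and 0.33 in the 3 comparisons, so that BCL2L1 stood 0.31 above genes like it in CSC, 0.07 in BaP and 0.10 in NNK. With the trend removed it was 0.30 ± 0.06 in CSC (adjusted p = 8.44e-06), 0.06 ± 0.06 in BaP (adjusted p = 0.482) and 0.11 ± 0.06 in NNK (adjusted p = 0.229). In CSC BCL2L1 was higher in 8 of 8 lines as counted and in 8 of 8 with the trend removed. In BaP and in NNK it was higher in 8 of 8 lines as counted, and in 4 and 5 of 8 with the trend removed. The 3 chemical comparisons share the DMSO samples, and the differences between chemicals were not tested. ABALON, which overlaps BCL2L1 by 1735 bases on the other strand, had 0 to 6 reads per sample.

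PMAIP1 was called lower in all 3 chemicals as counted. It lay between 18.6 and 48.4 CPM in DMSO (median 31.1), between 13.4 and 34.2 in CSC (median 21.1), between 5.56 and 54.2 in BaP (median 24.6) and between 11 and 34.1 in NNK (median 20.3), with overlap in each case. The log2 fold change was -0.43 ± 0.10 in CSC (adjusted p = 5.69e-05), -0.32 ± 0.10 in BaP (adjusted p = 0.00309) and -0.56 ± 0.10 in NNK (adjusted p = 7.22e-07). Genes of like GC content had medians of -0.22, -0.20 and -0.21. After removal of the trend it was -0.37 ± 0.10 in NNK (adjusted p = 0.00315), and no longer called in CSC (-0.23, adjusted p = 0.0516) or BaP (-0.16, adjusted p = 0.217). In NNK it was lower than DMSO in 8 of 8 lines as counted and in 5 of 8 lines with the trend removed. Without the 9 shallow libraries all 16 chemical calls of the members passed again.

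MCL1 was not called in any chemical as counted, with limma-voom, edgeR or DESeq2. Its medians were 466 CPM in DMSO, 497 in CSC, 468 in BaP and 487 in NNK, and the 95% intervals of the log2 fold change were -0.05 to 0.06 in CSC, -0.06 to 0.05 in BaP and -0.05 to 0.06 in NNK. Its exons have 45.5% GC, and genes of like GC content had medians of -0.08, -0.09 and -0.08. With the trend removed MCL1 was 0.07 ± 0.03 in CSC (adjusted p = 0.0249) and 0.08 ± 0.03 in NNK (adjusted p = 0.0441), which passed.

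BAX, BAD and BBC3 carry the highest GC contents of the family, at 60.7%, 64.7% and 64.4%. BAX had medians of 21.9 CPM in DMSO, 28.2 in CSC, 28.3 in BaP and 26.5 in NNK, with log2 fold changes of 0.47 ± 0.10, 0.49 ± 0.10 and 0.46 ± 0.10 that were all called (largest adjusted p = 8.2e-05). BAD had medians of 25.6, 35.7, 32.9 and 33.4 CPM in the same order and log2 fold changes of 0.52 ± 0.10, 0.47 ± 0.10 and 0.48 ± 0.10 (largest adjusted p = 2.39e-05). Genes of like GC content had medians between 0.40 and 0.55 in these comparisons, within 0.09 of BAX and of BAD. With the trend removed, BAX lay between 0.03 and 0.08 and BAD between -0.03 and 0.04, and none of the 6 values was called (limma-voom, smallest adjusted p = 0.633, 0 at an unadjusted p under 0.05). BBC3 was called in CSC (medians 7.14 CPM in DMSO and 9.28 in CSC, 0.48 ± 0.16, adjusted p = 0.00696), and was -0.07 with the trend removed (adjusted p = 0.775). In BaP it was 0.34 ± 0.17 (adjusted p = 0.0795) and in NNK 0.18 ± 0.17 (adjusted p = 0.395), neither of which was called.

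BAK1 and BCL2L11 were called in CSC, and differences between chemicals were not tested. BAK1 (58.8% GC) had medians of 12.9 CPM in DMSO, 19.3 in CSC, 18.0 in BaP and 14.3 in NNK. In CSC its log2 fold change of 0.50 ± 0.11 was called (adjusted p = 6.89e-05) and became 0.14 (adjusted p = 0.364) with the trend removed. In BaP it was 0.26 ± 0.12 (95% interval 0.02 to 0.49, adjusted p = 0.0631), just short of the threshold. In NNK it was -0.03 ± 0.13 as counted (adjusted p = 0.86) where genes of like GC had a median of 0.36, and -0.34 ± 0.12 (adjusted p = 0.037) with the trend removed. BCL2L11 (47.4% GC) had medians of 47.3 CPM in DMSO, 42.8 in CSC, 48.2 in BaP and 47.8 in NNK, and its log2 fold change in CSC was -0.19 ± 0.07 both as counted (adjusted p = 0.021) and with the trend removed (adjusted p = 0.0323). That call was lost without replicate 1 and without replicate 3. BCL2 was called lower in NNK (medians 7.21 and 5.19 CPM, -0.55 ± 0.18, adjusted p = 0.0068), a call lost without replicate 2 and with the trend removed (-0.46, adjusted p = 0.0602). BID had medians of 26.0 to 27.8 CPM in the 4 treatments and was not called in any with limma-voom, edgeR or DESeq2, with 95% intervals from -0.18 to 0.22.

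**Figure D4:**
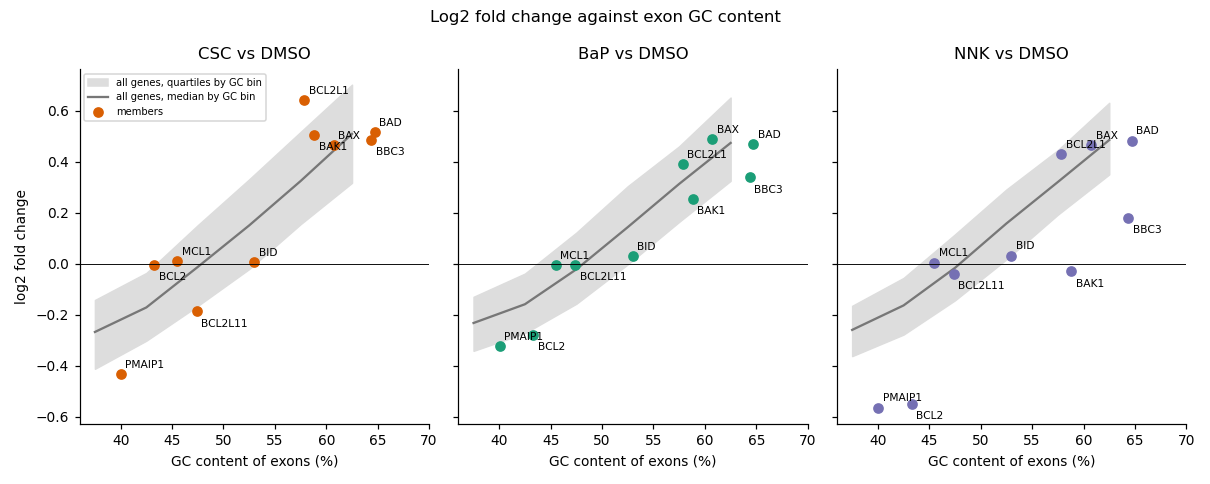
The log2 fold change in each chemical (y axis) is plotted against the GC content of the exons in percent (x axis) for the 10 members (points), over the median and quartiles of all genes in bins of GC content (line and band). In CSC BCL2L1 lies above the band and PMAIP1 and BCL2L11 below it, and in NNK PMAIP1, BCL2 and BAK1 lie below the band. In BaP PMAIP1 and BCL2 lie slightly below the band. BCL2 in CSC lies at its upper edge and BID in NNK at its lower edge. BBC3 in NNK (0.18), to the right of where the band ends, is below the lower quartile of its bin (0.35).

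Responses were next taken line by line, 24 contrasts of 3 samples against 3 (2 for CSC-treated FGFR1) with the spread shared over all combinations. Of 240 member values 25 were called, beside 11.1% of all gene values, and 3 were called with the trend removed, beside 2.70%. BCL2L1 accounted for 11 of the 25. In CSC it was called in 7 of 8 lines, from 0.50 in GFP to 0.84 in PIK3CA, and the value in CDKN2A knockout, 0.39, was not called. In PIK3CA cells the DMSO samples had 74.1, 76.1 and 83.0 CPM, the CSC samples 141, 159 and 128, the BaP samples 126, 130 and 109 and the NNK samples 108, 110 and 128. Every treated PIK3CA sample was above every DMSO sample of that line. The CSC response of BCL2L1 in PIK3CA was 0.84 ± 0.13 (adjusted p = 2.13e-07), and 0.47 ± 0.13 with the trend removed (adjusted p = 0.00926). BAX, BAD and BBC3 were higher in CSC in 8 of 8 lines by sign as counted, with BAX and BAD called in 2 lines each. With the trend removed they were higher in 5, 4 and 2 of 8 lines, and none of these values was called.

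Calls toward lower levels included BID in FAT1 knockout cells and PMAIP1 in NNK. In FAT1 knockout BID had 28.2, 36.4 and 27.7 CPM in DMSO, 16.4, 19.1 and 13.4 in CSC, 14.3, 17.0 and 16.3 in NNK and 34.7, 36.9 and 15.1 in BaP. All CSC and NNK samples were below all DMSO samples. The log2 fold change was -0.87 ± 0.29 in CSC (adjusted p = 0.0324) and -0.87 ± 0.30 in NNK (adjusted p = 0.0443), and with the trend removed -1.04 (adjusted p = 0.0114) and -1.04 (adjusted p = 0.0527). The third value called with the trend removed was BAK1 in NNK-treated PIK3CA cells (-1.04 ± 0.27, adjusted p = 0.0164). PMAIP1 in NNK was called in GFP (-0.96 ± 0.35, adjusted p = 0.0425), FGFR1 (-0.86 ± 0.26, adjusted p = 0.0264) and CDKN2A knockout (-0.81 ± 0.23, adjusted p = 0.0214). In CDKN2A knockout it had 48.4, 41.0 and 34.3 CPM in DMSO and 26.5, 26.5 and 19.2 in NNK. With the trend removed they were -0.67, -0.70 and -0.67, and none was called (limma-voom, smallest adjusted p = 0.157, 2 at an unadjusted p under 0.05).

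Whether the response to the chemicals differed between lines was tested with 1 F test per gene over the 21 interaction terms. No member passed (0 of 10 with limma-voom, edgeR and DESeq2), beside 2.36% of all genes. At an unadjusted p under 0.05 there were 2 members with limma-voom (BAK1 at an adjusted p of 0.289 and BID at 0.31), 1 with edgeR and 0 with DESeq2. The line by line calls above are therefore not shown to differ from the responses of the other lines.

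**Figure D5:**
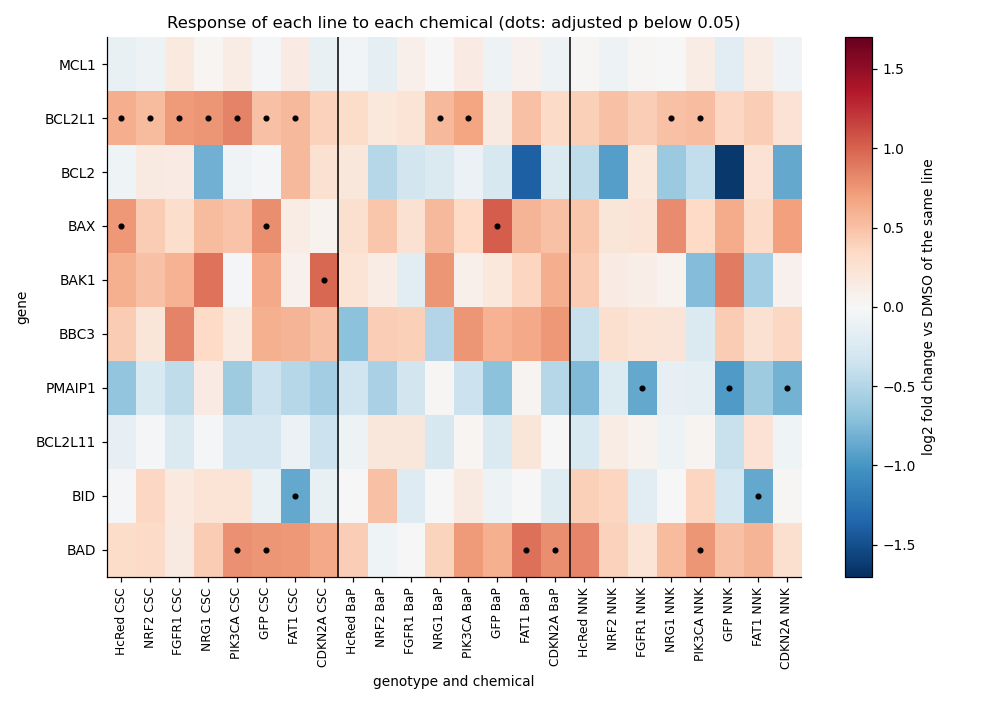
The grid shows the log2 fold change of each member (rows) against DMSO of the same line for each line and chemical (columns), with red for higher and blue for lower values and a dot where the adjusted p was under 0.05. The values are as counted. The row of BCL2L1 is red in all 24 columns, and that of MCL1 stays between -0.18 and 0.16.

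The wider pathway was read from lists chosen with earlier results of these data known, and counts in a list are to be read against the shares of all genes called, which were 48.8% in FAT1 knockout, 58.2% in CDKN2A knockout, 21.7% in NRF2, 13.9% in FGFR1, 12.2% in NRG1, 27.7% in PIK3CA, 55.1% in CSC, 51.0% in BaP and 51.8% in NNK. Beyond the 10 members, 9 of 13 other BCL2 family genes had enough reads to test. BMF, a BH3-only gene tied to the cytoskeleton, was higher in FAT1 knockout (1.09 ± 0.12, adjusted p = 4.83e-15) and FGFR1 (0.78 ± 0.11, adjusted p = 3.88e-08) and lower in CDKN2A knockout (-0.87 ± 0.13, adjusted p = 5.29e-09) and PIK3CA (-0.93 ± 0.15, adjusted p = 6.14e-08). In BaP it was 0.89 ± 0.08 (adjusted p = 2.36e-17) and kept 0.63 with the trend removed (adjusted p = 1.33e-10), when none of the 10 members was called. Of these 9 genes, 4 were called in FAT1 knockout (3 higher), 5 in CDKN2A knockout (2 higher), 3 in NRF2 (2 higher), 4 in CSC (3 higher), 3 in BaP (2 higher) and 4 in NNK (3 higher). With the trend removed the counts were 2 in CSC (0 higher), 3 in BaP (2 higher) and 1 in NNK (1 higher). Of all genes 33.4%, 24.7% and 17.2% were then called in the same order.

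Downstream of the pore, 16 genes of caspases and the apoptosome were tested. In CDKN2A knockout 10 of the 16 were called, near the share of all genes, with 6 higher and 4 lower, among the latter APAF1 (-0.61), the scaffold of the apoptosome. FAT1 knockout had 6 higher and 1 lower, also near the share of all genes, PIK3CA 5 higher and NRF2 2 higher, with CYCS, cytochrome c itself, at 0.46 in PIK3CA and 0.38 in NRF2. CYCS was lower in CSC (-0.47), BaP (-0.39) and NNK (-0.36) and stayed called with the trend removed (-0.31, -0.24 and -0.19). Of 8 inhibitors of apoptosis and their antagonists, BIRC2 and BIRC3, which restrain caspase signalling, were higher in CDKN2A knockout (0.93 each) and CFLAR, the decoy of caspase 8, was lower (-1.08), with 3 higher and 1 lower in all. BIRC5 (survivin) was lower in CSC (-0.39), BaP (-0.26) and NNK (-0.13), and with the trend removed (-0.49, -0.35 and -0.21). In those chemicals 3, 4 and 5 of the 8 were lower as counted, beside 27.1%, 24.9% and 25.7% of all genes. With the trend removed 2, 1 and 2 were lower, beside 17.9%, 13.9% and 9.46% of all genes. Those called higher numbered 1, 0 and 0 as counted and 1, 1 and 0 with the trend removed. Of 9 death receptor genes, 4 were higher and 2 lower in CDKN2A knockout, led by TNFRSF10D (1.84), a decoy receptor for TRAIL, and TNFRSF1A was higher in CSC (0.48), BaP (0.44) and NNK (0.43), and with the trend removed (0.22, 0.20 and 0.19).

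Because PMAIP1 and BBC3 are known p53 targets and PMAIP1 also an ATF4 target, other genes of both pathways, most of them targets too, were tested. Of 20 genes of the p53 pathway 9 were higher in each chemical (26.1% to 28.0% of all genes) and 8 (CSC), 6 (BaP) and 5 (NNK) lower (24.9% to 27.1%). With the trend removed 4, 6 and 4 were higher and 3, 1 and 1 lower. CDKN1A, the p53-responsive inhibitor of the cell cycle, was 0.99 in CSC, 0.97 in BaP and 0.68 in NNK, and 0.66, 0.65 and 0.38 with the trend removed (largest adjusted p = 4.61e-12). As counted in the same samples, PMAIP1 was called lower in all 3 chemicals, BAX higher in all 3 and BBC3 higher in CSC. Of these values of the members, only PMAIP1 in NNK was called with the trend removed. The list had medians of -0.07, 0.09 and 0.12 in the 3 chemicals as counted, and 0.00, 0.03 and 0.07 with the trend removed. In FAT1 knockout 11 of the 20 were higher and 3 lower, with a median of 0.35, where 48.8% of all genes were called. Of 12 genes of the ATF4 pathway, 6 were higher and 0 lower in FGFR1, where 13.9% of all genes were called, led by ATF3 (1.30 ± 0.17, adjusted p = 1.31e-09) and CHAC1 (0.89 ± 0.17, adjusted p = 3.04e-05). In CDKN2A knockout 6 of the 12 were higher and 1 lower, in PIK3CA 5 and 2, in FAT1 knockout 2 and 6, in NRG1 5 and 0, and in NRF2 0 and 5, led by VLDLR (-1.51). In the chemicals 7 (CSC), 8 (BaP) and 6 (NNK) of the 12 were higher and 0, 1 and 1 lower. With the trend removed 4, 5 and 2 were higher and 1, 2 and 2 lower, to be read against the shares given for the p53 list. The medians of the 12 were 0.31, 0.41 and 0.11 as counted, and 0.05, 0.06 and -0.13 with the trend removed.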

How the data were processed

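Per the labels, SFL libraries of AALE cells were read as single-end 75-base reads, and groups and replicate numbers were taken from the sample titles. The authors trimmed reads with cutadapt 1.12, checked them with FastQC 0.11.5, aligned them to hg19 with STAR 2.5.2b and counted them in RefSeq genes with featureCounts, with versions as in the submitters' processing notes. The deposited files hold 1 whole-number count per gene, not normalized. Whether counting used strand is not given in the sources used here. The study describes its replicates as biological, but the labels name no separate cultures, so p-values measure the spread between these samples.

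Counts were scaled by TMM (edgeR 4.0.16) and tested with limma 3.58.1 on voom values in R 4.3.3, 2-sided, over genes with a mean count above 1, with Benjamini-Hochberg adjustment over all genes tested and a threshold of 0.05. Genotype and treatment entered 1 additive fit of 95 samples. A fit of 32 combination means gave the interaction test and the values by line. Levels are CPM of the TMM-scaled library, and log2 CPM used a prior count of 2. GC content, exon length and coordinates came from GENCODE models on GRCh37, to which 24309 symbols were matched by name, so they may differ from the RefSeq models counted. The correction removed a loess trend (span 0.3) on GC content and exon length from each sample. The tests were also run on simulated data with 200 changed genes per comparison and the same spread for every gene. Those data held no GC shift between treatments, so they cannot speak to the chemical calls or the correction. The alternatives tried were DESeq2 1.42.0, its size factors with limma, the quasi-likelihood test of edgeR, 2 other filters on low counts, leaving out each replicate number, the replicate number as a block, the correction, both together, leaving out shallow libraries and, for lines, DMSO-treated samples only. The union of exons as length and the fit of genes with a known GC content were chosen after seeing the data. No samples agreed within sampling noise.

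The 10 members, the pathway lists and the naming rule were chosen with earlier results of these data known. All members are named. From each list up to 3 genes per direction and comparison with the largest change, past the threshold and with a mean count of at least 10, could be named. For each member the 2 genes with the most similar pattern were named. Intervals and limits cover counting or sampling error only.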

Additional observations from a re-analysis of the deposited data

How the results depend on the processing

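Of 1212 recomputed member values, 1074 kept their side of the threshold (62 of them, not called, with a change of sign), 95 lost a call, 37 gained one and 6 changed sign after being called. Depth limits BCL2 and BBC3 most, with means under 10 reads. With GC content and exon length removed, genes called were 4499 in CSC (7922 as counted), 3327 in BaP (7337) and 2319 in NNK (7455), the interaction gave 222 (339) and line by line member calls numbered 3 (25). The changes of sign came under this correction, which by its construction removes what follows GC content. BBC3 in CSC was -0.071, and BAD was -0.030 in CSC and -0.024 in BaP. Without a filter on low counts BaP gave 12546 and NNK 12582 genes. DESeq2 gave 152 interaction genes and 13 line by line member calls. The cause of these last differences was not tested. DMSO-treated samples alone, with fewer samples, gave 5408 genes in CDKN2A knockout (8376 over all treatments), 3752 in FAT1 knockout (7015), 265 in FGFR1 (1996), 1005 in NRF2 (3120), 287 in NRG1 (1752) and 1228 in PIK3CA (3990). Leaving out each replicate number gave 6654 to 6830 genes in CSC, 6008 to 6258 in BaP, 5989 to 6331 in NNK, 5505 to 6051 in FAT1 knockout, 7190 to 7531 in CDKN2A knockout, 1975 to 2283 in NRF2, 1150 to 1295 in FGFR1, 901 to 1308 in NRG1, 2685 to 3304 in PIK3CA, 102 to 289 for the interaction, and 8 to 13 line by line member calls. With the union of exons as length, an alternative chosen after seeing the data, MCL1 was at 78.5, BAD 19.7, BCL2L1 17.2, BAX 9.91, BCL2L11 6.93 and BID 5.92 CPM per kb.

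Replicate numbers do not pair these samples. Of 48 pairs of groups, 0 had every same-numbered correlation over 0.1, and mean correlations of deviations ran from -0.0232 to 0.0582. With the replicate block the counts were 7901 in CSC, 7328 in BaP, 7435 in NNK, 7026 in FAT1 knockout, 8376 in CDKN2A knockout, 3120 in NRF2, 1988 in FGFR1, 1765 in NRG1 and 3987 in PIK3CA, with 376 for the interaction and 23 line by line member calls. All 40 member calls passed with the block and 2 more were gained. The block with the correction gave 4478 genes in CSC, 3343 in BaP and 2297 in NNK and 4 line by line member calls, with BBC3 in CSC at -0.070 and BAD at -0.019 in CSC and -0.031 in BaP.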

Other observations

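The genes whose mean log2 CPM over the 32 combinations of line and treatment followed a member most closely were taken from the 10062 genes whose mean count reached 10. The values are Pearson correlations over 32 means, which share libraries, depth and the GC shift, and they are given as a description. PDLIM7 (r = 0.915) and STK10 (r = 0.897) were nearest to BCL2L1, and DCBLD2 (r = 0.879) and SRP68 (r = 0.858) to MCL1. ERI3 (r = 0.870) and ADCY3 (r = 0.853) were nearest to BAD, and CD40 (r = 0.827) and FMNL3 (r = 0.813) to BID. PMAIP1 was nearest to PTPN2 (r = 0.808) and PSMD12 (r = 0.748), BCL2L11 to STON2 (r = 0.794) and ABCA5 (r = 0.753), BAX to ETFB (r = 0.790) and MAU2 (r = 0.761), and BAK1 to ZFP64 (r = 0.784) and MLKL (r = 0.768). BCL2 and BBC3 had mean counts under 10 and were not searched, and no member was among the 2 genes nearest to another member. Between members, the highest value was 0.626 for BCL2L1 with BAK1 (57.8% and 58.8% GC) and the lowest was -0.557 for BCL2L1 with BCL2L11.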
